A study of Mus musculus with 8 samples.

Results

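Cd74 and 7 genes of the major histocompatibility complex (MHC) system were examined in sorted mouse nephron progenitors of different genotypes for Smo, the membrane protein that relays Hedgehog signals into the cell. The 8 genes are Cd74, the class II genes H2-Aa, H2-Ab1 and H2-Eb1, the regulator gene Ciita, the class I genes H2-K1 and H2-D1, and B2m. They were taken by symbol from the deposited table of 24539 genes, and all 8 were among the 13459 genes with enough counts to test. They were chosen because Cd74 had been seen to be high in the libraries labelled KO and Het, with the question whether genes of immune cells were high there too. The differences of these 8 genes between KO or Het and WT libraries are therefore given as a description, with no p-value. Counts of calls among these 8 genes stand beside the shares of all tested genes, and nothing is read from them.

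MHC class II molecules are pairs of an alpha and a beta chain that show peptides from swallowed material to helper T cells. They are known mainly from dendritic cells, macrophages and B cells. Cd74, the invariant chain, holds the new pair together and guides it to the compartment where peptides are loaded, and H2-DM then exchanges the last piece of Cd74 for a peptide. The genes are switched on together by CIITA, a coactivator that sits on the factors of the X and Y boxes in their promoters, among them the RFX complex. MHC class I molecules, made of a heavy chain and B2m, show peptides from within the cell and are made by nearly all cells. Interferon gamma can raise both classes, and it can make cells outside the immune system express class II genes.

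Cells were sorted from kidneys at E18.5, shortly before birth, by Six2GFPcre, a transgene that makes a fusion of GFP and Cre in nephron progenitors and that all groups carry. The labels name 4 groups of 2 libraries. KO stands for Smo c/c, with 2 conditional alleles that Cre can inactivate, Het for Smo c/+, WT for Smo +/+, and SmoM2 for Rosa26 SmoM2/+ with Smo +/+, in which an active form of Smo is expressed from the Rosa26 locus. The promoter of Six2 drives this Cre, so the conditional and Rosa26 alleles can be changed only in cells of that lineage in which Cre is active. The labels do not say whether the 2 libraries of a group came from different embryos, so p-values measure the spread between these libraries, which in the KO- and Het-labelled groups may be technical.

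Listed counts summed to 4422305 to 10305398 per library, lowest in the KO-labelled libraries. Smo had 59 and 51 counts in the KO-labelled libraries, 108 and 141 in the Het-labelled, 3893 and 3442 in the WT-labelled and 5915 and 5443 in the SmoM2-labelled. In CPM, a gene's counts scaled to the size of its library, the means were 12.1, 19.2, 369 and 616. The Het-labelled libraries thus stood near the KO-labelled ones, against a label that gives them 1 wild-type allele, and groups are called by their labels throughout. Six2, the defining gene of nephron progenitors, was at 1131 to 2103 CPM in all 8 libraries. Y-linked counts were found in both KO-labelled libraries, which had next to no Xist, both Het-labelled libraries had Xist and no Y-linked counts, and the WT- and SmoM2-labelled groups had 1 library of each kind, so that those 2 libraries came from embryos of different sex. Embryo sex therefore cannot be told apart from group between KO- and Het-labelled libraries.

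On chromosome 17 of mm10 (GRCm38), RefSeq places H2-K1 at chr17:33996012-34000619, H2-Ab1 at chr17:34263227-34269418, H2-Aa at chr17:34282744-34287823, H2-Eb1 at chr17:34305867-34316674 and H2-D1 at chr17:35263094-35267497. Ciita lies at chr16:10480014-10531064 and B2m at chr2:122147687-122153082.

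The promoters of 5 of the 8 members had an entry in the RefSeq promoter sequences of that build. The 180 bases before the start of 4 genes are shown to place the class II and class I control elements side by side. Capitals mark matches to the letters searched, which were chosen with these sequences in view. In the class II promoters they are the core of the X box (GCAACT), the X2 box (TGACGTCA) and the Y box (CTGATTGG). In the class I and B2m promoters they are the NF-kB site of enhancer A (GGGATTCCC), the Y box read on the opposite strand and an interferon-stimulated response element (GAAANNGAA).
H2-Aa, chr17:34287824-34288003, minus strand: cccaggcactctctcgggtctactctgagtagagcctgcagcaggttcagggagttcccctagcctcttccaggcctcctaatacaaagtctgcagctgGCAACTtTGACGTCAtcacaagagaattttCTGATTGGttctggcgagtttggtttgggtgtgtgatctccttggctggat
H2-Eb1, chr17:34305687-34305866, plus strand: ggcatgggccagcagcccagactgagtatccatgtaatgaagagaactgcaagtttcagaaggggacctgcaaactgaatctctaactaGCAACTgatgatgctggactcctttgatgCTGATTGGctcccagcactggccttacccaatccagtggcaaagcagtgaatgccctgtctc
H2-D1, chr17:35262914-35263093, plus strand: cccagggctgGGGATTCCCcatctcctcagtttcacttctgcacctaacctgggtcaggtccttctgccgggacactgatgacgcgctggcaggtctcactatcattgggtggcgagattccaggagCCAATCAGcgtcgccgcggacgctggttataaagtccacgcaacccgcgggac
B2m, chr2:122147507-122147686, plus strand: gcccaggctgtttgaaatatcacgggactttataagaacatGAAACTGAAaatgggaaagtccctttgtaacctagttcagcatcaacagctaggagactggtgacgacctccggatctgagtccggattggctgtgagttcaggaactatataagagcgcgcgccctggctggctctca

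The H2-Aa promoter held the X box core 81 bases before the start, the X2 box at 74 and the Y box at 51. The H2-Eb1 promoter held the X box core at 91 bases before the start and the Y box at 62. An X box core followed on the same strand by a Y box within 50 bases was found in 11 of 32851 RefSeq promoters of 300 bases (0.0335%), with 24 bases between the elements in H2-Aa and 23 in H2-Eb1. The related class II gene H2-Eb2 was also among those 11. Searched on both strands of the same promoters, the X box core was in 10.9%, the X2 box in 1.79% and the Y box in 4.1% of them.

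The H2-D1 promoter held the enhancer A site 170 bases before the start and the Y box letters on the opposite strand at 53. The B2m promoter held a response element match at 139 bases. The enhancer A letters were in 116 of the 32851 promoters (0.353%) and the response element letters in 8.56%. These matches describe the sequence and are no measure of binding.

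Cd74 was at 86.5 and 80.7 CPM in the KO-labelled libraries, 109 and 130.3 in the Het-labelled, 19.9 and 7.83 in the WT-labelled and 4.70 and 6.70 in the SmoM2-labelled. All 4 KO- and Het-labelled libraries were above all 4 others. The group means were 83.6 ± 4.10, 119.7 ± 15.0, 13.9 ± 8.55 and 5.70 ± 1.41 CPM (SD, n = 2). The KO-labelled mean was 5.94-fold (log2 2.57, SE 0.31) and the Het-labelled mean 8.50-fold (log2 3.09, SE 0.30) that of the same WT-labelled libraries. Behind these levels stood 371 to 817 counts per library in the KO- and Het-labelled groups, and 46 to 214 in the others. In a mixture of cells, a larger share of cells that express a gene and more RNA of it per cell cannot be told apart.

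**Figure D1:**
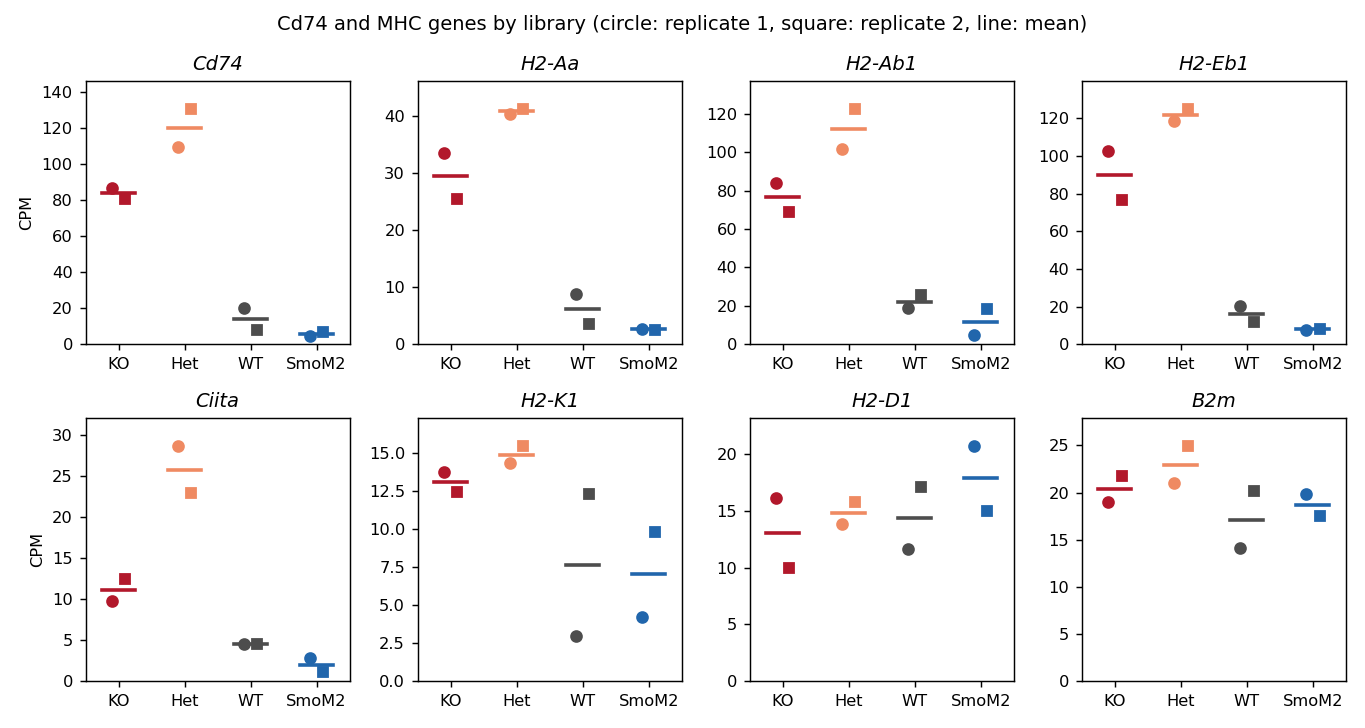
Level of each of the 8 genes in CPM (vertical axes start at 0) in the 4 groups. Circles are replicate 1, squares replicate 2 and lines the group mean. Cd74, H2-Aa, H2-Ab1, H2-Eb1 and Ciita are higher in each of the 4 KO- and Het-labelled libraries than in each other library, as is H2-K1 by a narrow margin (12.4 against 12.3 CPM), while H2-D1 and B2m overlap between most groups. The genes were chosen with earlier results of these data known. The share of all tested genes that separate in this way was not computed, so nothing is read from it.

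The 3 chains of the class II molecules had the same order of groups. H2-Aa, the alpha chain of the I-A molecule, was at 33.6 and 25.4 CPM in the KO-labelled, 40.5 and 41.2 in the Het-labelled, 8.75 and 3.59 in the WT-labelled and 2.66 and 2.54 in the SmoM2-labelled libraries. H2-Eb1, the beta chain of I-E, was at 102.6 and 76.8, 119 and 125, 20.2 and 12.0, and 7.76 and 8.20 CPM in the same order. Both followed Cd74 closely, including the lower level of the second WT-labelled library. H2-Ab1, the beta chain of I-A, was at 84.1 and 68.7, 102 and 122, 19.0 and 25.5, and 4.90 and 18.6 CPM. Its SmoM2-labelled libraries differed from each other, with 48 and 161 counts, and the second of them stood beside the WT-labelled ones.

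Set against the WT-labelled libraries, the log2 differences of the KO- and Het-labelled groups were 2.24 (SE 0.32) and 2.70 (SE 0.31) for H2-Aa, 2.47 (SE 0.22) and 2.91 (SE 0.22) for H2-Eb1, and 1.78 (SE 0.37) and 2.33 (SE 0.37) for H2-Ab1. These are the values for which the genes were chosen. Their size moved with the choice of WT-labelled library. Without the first the KO against WT difference was 3.41 for Cd74, 3.03 for H2-Aa and 2.90 for H2-Eb1, and without the second it was 2.03, 1.72 and 2.12. The Het against WT difference was likewise 3.93, 3.4997 and 3.34 without the first, and 2.56, 2.20 and 2.57 without the second.

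Ciita, the coactivator of class II genes, had 44 and 57 counts in the KO-labelled, 215 and 135 in the Het-labelled, 49 and 41 in the WT-labelled and 28 and 9 in the SmoM2-labelled libraries. That is 9.73 and 12.4, 28.7 and 22.9, 4.56 and 4.46, and 2.86 and 1.04 CPM. The order of groups was that of Cd74, with a wider step between KO and Het. Ciita differed from the WT-labelled libraries by 1.29 (SE 0.34) in the KO-labelled and 2.51 (SE 0.32) in the Het-labelled group, on the log2 scale.

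Of the class I genes and B2m, H2-K1 had the same order of group means but with less separation, and H2-D1 and B2m did not have it. H2-K1, a classical class I heavy chain, was at 13.7 and 12.4 CPM in the KO-labelled, 14.3 and 15.4 in the Het-labelled, 2.98 and 12.3 in the WT-labelled and 4.19 and 9.81 in the SmoM2-labelled libraries. Each KO- and Het-labelled library was above each other library, with 12.4 CPM as the lowest of the former and 12.3 as the highest of the latter. Its log2 differences from WT were 0.79 (SE 0.53) and 0.98 (SE 0.51) and moved with the choice of WT library. The KO against WT value was 2.09 without the second WT-labelled library and 0.08 without the first. H2-D1, the other classical heavy chain measured, was at 16.1 and 10.01, 13.9 and 15.8, 11.6 and 17.1, and 20.7 and 15.0 CPM. B2m, the light chain of class I, was at 19.0 and 21.8, 21.0 and 24.9, 14.1 and 20.1, and 19.8 and 17.6 CPM. H2-D1 differed from WT by -0.13 (SE 0.29) and 0.05 (SE 0.28), and B2m by 0.26 (SE 0.22) and 0.43 (SE 0.21). H2 genes resemble each other in sequence, so reads could be shared out between them in a way the sources used here do not give, and single H2 values are uncertain to that degree. H2-K1 and H2-D1 had equal counts in none of the 8 libraries.

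Of the 8 genes, 5 were called higher in KO- than in WT-labelled libraries, where edgeR called 23.0% of all tested genes in either direction and 11.6% higher. In Het- against WT-labelled libraries 5 were called higher, with 25.3% of all tested genes called and 13.1% higher. Since the genes were chosen on these contrasts, nothing is read from the counts. Both comparisons use the same WT-labelled libraries. The median log2 difference of the 8 genes was 1.54 and 2.42, beside 0.03 and -0.02 over all tested genes.

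Between genes, levels were set side by side in the authors' RPKM, which divide by gene length. In the Het-labelled libraries the means were 76.0 ± 9.53 for H2-Ab1, 68.5 ± 8.15 for Cd74, 59.1 ± 1.74 for H2-Eb1, 31.0 ± 0.21 for H2-Aa, 21.7 ± 2.52 for B2m, 7.26 ± 0.35 for H2-K1, 6.92 ± 0.58 for H2-D1 and 3.49 ± 0.58 for Ciita (RPKM, SD, n = 2). H2-Ab1 and Cd74 lay within 1 SD of each other there, as did H2-K1 and H2-D1. In the WT-labelled libraries B2m led with 16.3 ± 3.33, followed by H2-Ab1 at 15.2 ± 2.42, Cd74 at 8.17 ± 5.34, H2-Eb1 at 7.98 ± 3.24, H2-D1 at 6.75 ± 1.498, H2-Aa at 4.81 ± 3.03, H2-K1 at 3.70 ± 3.08 and Ciita at 0.62 ± 0.039 RPKM. The step from H2-Ab1 to Cd74 was larger than the SD of either gene and the step from H2-K1 to Ciita about as large as the SD of H2-K1, while the other neighbours lay closer together than the larger SD of each pair.

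The ratio of Cd74 to B2m in RPKM was 2.76 and 2.25 in the KO-labelled, 3.16 and 3.17 in the Het-labelled, 0.859 and 0.236 in the WT-labelled and 0.144 and 0.231 in the SmoM2-labelled libraries. Cd74 was thus above B2m in each KO- and Het-labelled library and below it in the other 4. Cd74 ranked above 89.9% to 94.4% of tested genes by RPKM in those 4 libraries and above 26.6% to 59.4% in the others.

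The genes were chosen for a high level of Cd74 in KO- and Het-labelled libraries, with earlier results of these data known. The SmoM2 against WT comparison shares the WT-labelled libraries and is therefore no independent check. In it the 5 class II genes were below the WT-labelled libraries without passing the test. edgeR called 0 of the 8 genes, with 0.223% of all tested genes called, which is 30 genes, and 1036 genes at an unadjusted p under 0.05. The log2 change was -1.31 (SE 0.36, edgeR adjusted p = 0.256) for Cd74, -1.26 (SE 0.38, edgeR adjusted p = 0.329) for H2-Aa, -1.02 (SE 0.25, edgeR adjusted p = 0.162) for H2-Eb1, -1.18 (SE 0.38, edgeR adjusted p = 0.383) for Ciita and -0.94 (SE 0.40, edgeR adjusted p = 0.622) for H2-Ab1. The unadjusted p was under 0.05 for these 5 genes, and by DESeq2 only H2-Eb1 passed, at an adjusted p of 0.015. With no filter on low counts all 5 passed, with edgeR adjusted p from 9.04e-08 to 0.0313. Left-out libraries also moved the values and decided calls. The Cd74 change ranged from -1.80, without the second WT-labelled library, to -0.47, without the first, and that of H2-Ab1 from -2.16, without the second SmoM2-labelled library, to -0.24, without the first. Without the second WT-labelled library the edgeR adjusted p was 0.00455 for Cd74, 0.0173 for H2-Aa and 0.0165 for H2-Eb1, and without the second SmoM2-labelled library it was 0.014 for H2-Ab1. H2-K1, H2-D1 and B2m changed by -0.12 (SE 0.52), 0.32 (SE 0.27) and 0.13 (SE 0.21), with edgeR adjusted p of 0.988, 0.894 and 0.959.

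Between KO- and Het-labelled libraries only Ciita passed. It was lower in the KO-labelled libraries by a log2 change of -1.22 (SE 0.31, edgeR adjusted p = 0.0337), and both KO-labelled libraries were below both Het-labelled ones. 1 of 8 members was thus called, with 9.43% of all tested genes called and 5.10% lower. The call did not survive the loss of any library of the 2 groups, with edgeR adjusted p of 0.159 and 0.0835 without the first and second KO-labelled library and 0.211 and 0.0749 without the first and second Het-labelled library. Cd74 changed by -0.52 (SE 0.28, edgeR adjusted p = 0.251), H2-Aa by -0.47 (SE 0.29, edgeR adjusted p = 0.325), H2-Ab1 by -0.55 (SE 0.35, edgeR adjusted p = 0.34) and H2-Eb1 by -0.44 (SE 0.20, edgeR adjusted p = 0.176). With no filter on low counts Cd74, H2-Ab1 and H2-Eb1 passed, with edgeR adjusted p of 0.00946, 0.0055 and 0.0321, and Cd74 also passed without the second WT-labelled library, at 0.0495. H2-K1, H2-D1 and B2m changed by -0.19, -0.18 and -0.17, with SEs of 0.52, 0.29 and 0.22. Sex goes with group in this comparison, and its part was not tested.

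**Figure D2:**
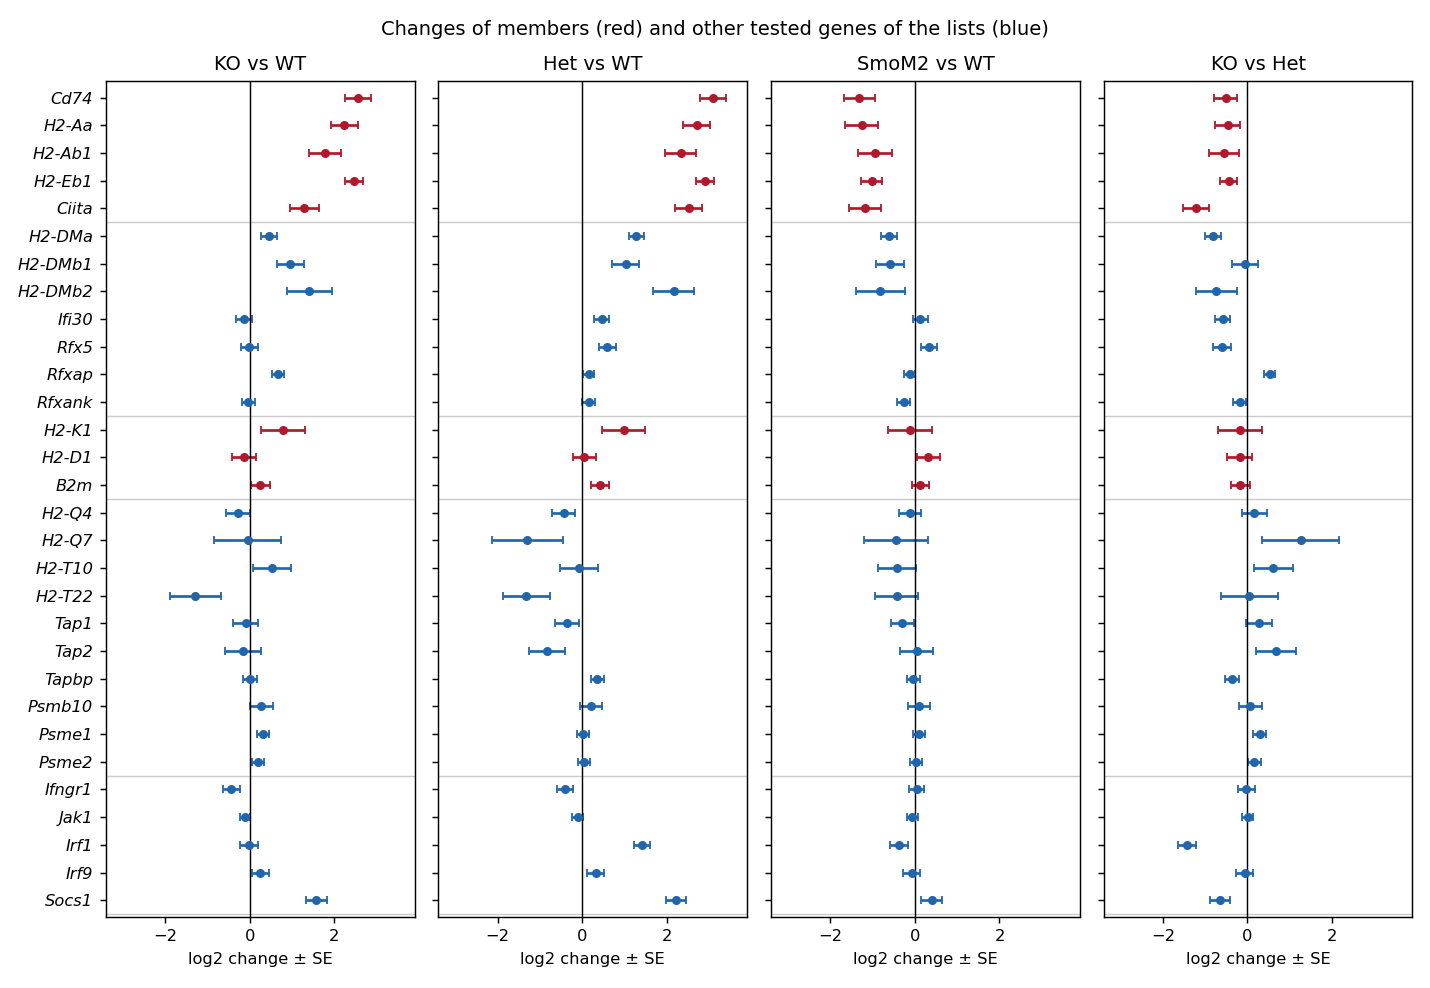
Log2 changes with SE (bars) of the 8 members (red) and of other tested genes of the class II, class I and interferon lists (blue) in the 4 comparisons, KO, Het and SmoM2 against WT and KO against Het. Only part of the tested class I and interferon genes is drawn. The class II members lie at 1.29 or more in the first and second panels and at -0.94 or less in the third. The class I genes drawn scatter about 0 apart from single genes with wide bars. Calr, called in Het against WT (log2 0.91, SE 0.29), is not drawn.

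Other genes of class II presentation were taken from a list of 15, of which 7 had enough counts to test. H2-DMa, a chain of the peptide exchanger H2-DM, was at 19.0 and 20.4 CPM in the KO-labelled, 36.7 and 32.6 in the Het-labelled, 14.6 and 14.0 in the WT-labelled and 10.1 and 8.66 in the SmoM2-labelled libraries. H2-DMb1, a beta chain of H2-DM, was at 15.0 and 12.8, 13.5 and 15.6, 5.40 and 8.92, and 3.47 and 6.12 CPM. H2-DMb2, the other beta chain, was at 6.64 and 8.27, 11.8 and 13.2, 4.56 and 0.87, and 1.74 and 1.39 CPM. In all 3 genes each Het-labelled library was above each WT-labelled one, and the SmoM2-labelled libraries were the lowest group.

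In Het- against WT-labelled libraries 4 of the 7 tested genes rose and none fell, with 25.3% of all tested genes called and 13.1% called higher. They were H2-DMa by 1.27 (SE 0.18, edgeR adjusted p = 0.00091), H2-DMb2 by 2.16 (SE 0.50, edgeR adjusted p = 0.00962), H2-DMb1 by 1.03 (SE 0.31, edgeR adjusted p = 0.0317) and Rfx5, a subunit of the RFX complex, by 0.60 (SE 0.19, edgeR adjusted p = 0.0416), all log2. The calls of H2-DMa and H2-DMb2 stood whichever library was left out, but the H2-DMb2 change ranged from 1.42, without the second WT-labelled library, to 3.81, without the first. That of H2-DMb1 was lost without the first Het-labelled (0.0891), the second Het-labelled (0.155) or the first WT-labelled library (0.172), and that of Rfx5 without the first Het-labelled (0.177), the second Het-labelled (0.145) or the second WT-labelled library (0.24), all edgeR adjusted p. The Rfx5 call was also lost with no scaling beyond the listed counts (0.0714) and with library totals implied by RPKM (0.0612).

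Of the 7 tested genes, 2 rose and none fell in KO- against WT-labelled libraries. That share of 28.6% stands beside 23.0% of all tested genes called and 11.6% called higher. Rfxap, another RFX subunit, rose by 0.67 (SE 0.13, edgeR adjusted p = 0.0052) from 35.0 to 55.9 CPM and did so whichever library was left out. H2-DMb1 rose by 0.97 (SE 0.32, edgeR adjusted p = 0.0483). Its call was lost without either KO-labelled library (0.208 and 0.0894), either Het-labelled library (0.0723 and 0.0721) or the first WT-labelled library (0.227), all edgeR adjusted p, and in DESeq2 (0.0561). H2-DMa and H2-DMb2 had log2 changes of 0.46 (SE 0.19, edgeR adjusted p = 0.0983) and 1.42 (SE 0.53, edgeR adjusted p = 0.0728). Rfxank, the third RFX subunit, and Ifi30, a reductase that unfolds proteins before loading, passed in none of the 4 comparisons.

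In SmoM2- against WT-labelled libraries 0 of the 7 passed in edgeR or DESeq2, beside 0.223% of all tested genes, and 1 had an unadjusted edgeR p under 0.05. In KO- against Het-labelled libraries H2-DMa was lower, by -0.81 (SE 0.18, edgeR adjusted p = 0.0233), and Rfxap higher, by 0.52 (SE 0.13, edgeR adjusted p = 0.0346). These were 28.6% of the 7, beside 9.43% of all tested genes. The H2-DMa call was lost without any of the 4 libraries compared (edgeR adjusted p 0.0951, 0.0632, 0.169 and 0.064 without KO 1, KO 2, Het 1 and Het 2). The Rfxap call was lost without these in turn (0.0885, 0.112, 0.252 and 0.127) and without the second SmoM2-labelled library (0.0508), all edgeR adjusted p, and in DESeq2 (0.0741). The list's median log2 change was 0.46, 0.60, -0.27 and -0.59 in KO against WT, Het against WT, SmoM2 against WT and KO against Het.

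The 8 list genes with too few counts to test include genes tied to professional antigen-presenting cells. The costimulatory ligands Cd80 and Cd86 had at most 1 count in any library. H2-Ob, a chain of the H2-DM inhibitor H2-O, had at most 1 count, and H2-Oa, its partner, at most 3. Ctss, the protease that trims Cd74 in many antigen-presenting cells, had 5 and 0 counts in the KO-labelled and 0 and 4 in the Het-labelled libraries, against 6 and 9 in the WT-labelled and 3 and 0 in the SmoM2-labelled. H2-Eb2 had 1 to 6 counts per library. H2-Ea-ps, the entry for the alpha chain of I-E, had 0 counts in all 8 libraries.

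Genes that process or partner with Cd74 moved in both directions, among 8 tested of a list of 9. Ctsl, a protease that can trim Cd74, was at 131.4 and 131.6 CPM in the KO-labelled, 118 and 119 in the Het-labelled, 262 and 278 in the WT-labelled and 285 and 314 in the SmoM2-labelled libraries. It fell by 1.04 (SE 0.11, edgeR adjusted p = 0.000256) in KO- and by 1.18 (SE 0.11, edgeR adjusted p = 0.000105) in Het- against WT-labelled libraries, on the log2 scale. Sppl2a, the membrane protease that clears the last Cd74 fragment, fell by 0.58 (SE 0.13, edgeR adjusted p = 0.0107) and by 0.48 (SE 0.13, edgeR adjusted p = 0.0186). The Sppl2a calls were lost without the first KO-labelled library (0.0518) and without the first Het-labelled (0.0714), the second Het-labelled (0.129) or the first WT-labelled library (0.0816). Lgmn, a lysosomal protease, passed in no comparison.

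Mif, the cytokine that binds Cd74 at the cell surface, had log2 changes of 0.49, 0.46 and 0.52 (SE 0.21 each) in the KO-, Het- and SmoM2- against WT-labelled comparisons, with edgeR adjusted p of 0.116, 0.132 and 0.585. In KO- against WT-labelled libraries Ddt, its relative, rose by 0.88 (SE 0.22, edgeR adjusted p = 0.0173), a call lost without the first KO-labelled (0.0981) or the first WT-labelled library (0.0767). Cd44, the signalling partner of Cd74, rose by 0.73 (SE 0.18, edgeR adjusted p = 0.0126) in Het- against WT-labelled libraries and was lower in KO- than in Het-labelled ones by -0.75 (SE 0.18, edgeR adjusted p = 0.0284). The first of these calls was lost without the second Het-labelled (0.122) or the first WT-labelled library (0.0807), and the other without KO 1 (0.115), KO 2 (0.0917), Het 1 (0.0935) or Het 2 (0.159).

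Cxcr4, a chemokine receptor that pairs with Cd74 in Mif signalling, was at 198 and 194 CPM in the KO-labelled, 235 and 286 in the Het-labelled, 122 and 27.0 in the WT-labelled and 53.7 and 86.3 in the SmoM2-labelled libraries. It rose by 1.79 (SE 0.47, edgeR adjusted p = 0.0177) in Het- against WT-labelled libraries, a call lost without the second Het-labelled library (0.0781) and in DESeq2 (0.0619). The change ranged from 1.06, without the second WT-labelled library, to 3.27, without the first. Its KO against WT value was 1.39 (SE 0.47, edgeR adjusted p = 0.054). Cxcr2 had 0 counts in all 8 libraries. In all, 1 gene of the list rose and 2 fell in KO against WT (37.5%, beside 23.0% of all tested genes). In Het against WT 2 rose and 2 fell (50%, beside 25.3%). None passed in SmoM2 against WT, beside 0.223% of all tested genes. In KO against Het 1 was lower (12.5%, beside 9.43% called and 5.10% called lower). In SmoM2 against WT 2 had an unadjusted edgeR p under 0.05 and DESeq2 called 1.

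Class I presentation genes beyond the members were taken from a list of 25, of which 17 were tested. In KO- against WT-labelled libraries 0 of the 17 passed in edgeR or DESeq2, beside 23.0% of all tested genes, with 1 at an unadjusted edgeR p under 0.05. In Het- against WT-labelled libraries 1 rose (5.88%, beside 25.3% of all tested genes called and 13.1% called higher). That gene was Calr, a chaperone of heavy chains and of many other glycoproteins, by 0.91 (SE 0.29, edgeR adjusted p = 0.0405). The first WT-labelled library was low in Calr, at 258 CPM beside 564 in the second, and without it the change was 0.45 (edgeR adjusted p 0.163). The call was also lost without either KO-labelled library (0.0593 and 0.0588), without either Het-labelled one (0.113 and 0.151) and in DESeq2 (0.115). In SmoM2 against WT and in KO against Het 0 of the 17 passed in edgeR or DESeq2, with 1 and 0 at an unadjusted edgeR p under 0.05. Of all tested genes, 0.223% and 9.43% were called there.

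The peptide transporter genes showed no call. Tap1 was at 8.63 and 9.57 CPM in the KO-labelled, 6.68 and 8.48 in the Het-labelled, 10.2 and 9.25 in the WT-labelled and 6.03 and 9.81 in the SmoM2-labelled libraries. Nlrc5, the class I counterpart of Ciita, had 5 counts in the first WT-labelled library and at most 2 in any other. The immunoproteasome genes Psmb8 and Psmb9 had at most 7 counts in any library. The list's median log2 change was 0.00, -0.08, 0.02 and 0.16 in the 4 comparisons in the order above, beside 0.03, -0.02, 0.00 and 0.02 over all tested genes.

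Several class I genes split the WT- and SmoM2-labelled libraries by replicate rather than by group. H2-Q7 had 11 and 67 counts in the WT-labelled and 11 and 43 in the SmoM2-labelled libraries, against 18 and 18 in the KO-labelled and 12 and 10 in the Het-labelled. H2-T10 had 170 and 45 counts in the WT-labelled and 99 and 47 in the SmoM2-labelled libraries. H2-K1 also had fewer counts in the first than in the second library of both groups. The class II gene H2-Ab1 split clearly only in the SmoM2-labelled libraries, with 48 and 161 counts, against 204 and 234 in the WT-labelled. The first libraries of both groups have Y-linked counts and the second have Xist, and whether sex or the haplotype of the H2 region plays a part was not tested.

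Of the 34 genes of the interferon list, 23 were tested. In KO against WT 2 were higher (8.7%, beside 23.0% of all tested genes called and 11.6% called higher). In Het against WT 3 were higher (13%, beside 25.3% called and 13.1% called higher). In SmoM2 against WT 0 passed in edgeR or DESeq2, beside 0.223% of all tested genes, with 1 at an unadjusted edgeR p under 0.05. In KO against Het 1 was lower (4.35%, beside 9.43% called and 5.10% called lower). Socs1, an inhibitor that cytokine receptors switch on, was at 19.7 and 20.2 CPM in the KO-labelled, 31.5 and 30.9 in the Het-labelled, 8.20 and 5.11 in the WT-labelled and 7.87 and 9.81 in the SmoM2-labelled libraries. It rose by 1.57 (SE 0.25, edgeR adjusted p = 0.0017) in KO- and by 2.22 (SE 0.24, edgeR adjusted p = 0.000174) in Het- against WT-labelled libraries, and both calls stood whichever library was left out.

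Irf1, a factor that acts on the Ciita and class I promoters after interferon gamma, was at 12.2 and 12.4 CPM in the KO-labelled, 37.5 and 28.7 in the Het-labelled, 11.8 and 13.1 in the WT-labelled and 9.19 and 9.93 in the SmoM2-labelled libraries. It rose by 1.42 (SE 0.20, edgeR adjusted p = 0.000896) in Het- against WT-labelled libraries. KO-labelled libraries stood at the WT level, with a change of -0.02 (SE 0.22, edgeR adjusted p = 0.963), and below the Het-labelled ones by -1.43 (SE 0.21, edgeR adjusted p = 0.00666, or 0.0805 without the first Het-labelled library).

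Xaf1, an interferon-induced gene, had at most 11 counts per library and rose in KO against WT by 1.80 (SE 0.58, edgeR adjusted p = 0.0437), a call lost in all 8 leave-outs, with edgeR adjusted p from 0.0601 without the second SmoM2-labelled library to 0.189 without the second WT-labelled library. Other induced genes ranged from 0 to moderate levels. Ifit2 was at 12.6 and 24.4 CPM in the KO-labelled, 10.8 and 12.9 in the Het-labelled, 8.29 and 11.6 in the WT-labelled and 9.81 and 6.24 in the SmoM2-labelled libraries, with a KO against WT change of 0.90 (SE 0.33, edgeR adjusted p = 0.0715). Irgm1 was at 7.62 to 11.1 CPM in the 8 libraries and passed in no comparison. Cxcl9 had no count in any library, Cxcl10 and Ifit1 had at most 1, and Gbp2 and Isg15 had at most 2. The receptor gene Ifngr1 was at 13.7 to 21.4 CPM in the 8 libraries and passed in no comparison. The list's median log2 change was 0.12, 0.09, -0.06 and -0.03 in the 4 comparisons.

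Many but not all genes that mark leukocytes were near 0. Of 44 leukocyte genes, 18 had at most 3 counts in every library. In single libraries 22 to 39 of the 44 had at most 3 counts, and the most such genes, 39, were in the second KO-labelled library. Others were well counted in all libraries, among them Cd68, at 10.8 to 44.7 CPM, and Zbtb46, at 35.1 to 48.2 CPM. Ptprc, the CD45 gene that all leukocytes express, had 1 count in a single Het-labelled and a single WT-labelled library and 0 in the other 6. The dendritic cell genes Flt3, Clec9a and Cd209a and the B cell gene Ms4a1 had 0 counts in all 8 libraries. A count of 0 allows up to 3 counts, or 0.279 to 0.664 CPM depending on the library, for counting error alone.

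The second KO-labelled library had 371 Cd74 counts and 287 counts over the 44 leukocyte genes. Of the latter, Zbtb46 had 171, Cd68 64 and Cd79b 27, and the other 41 genes had 25 together, of them 7 in Coro1a, 1 in C1qa and 0 in Ptprc, Csf1r and C1qb. Csf1r, the macrophage growth factor receptor, had 25 and 0 counts in the KO-labelled, 15 and 6 in the Het-labelled, 40 and 16 in the WT-labelled and 18 and 12 in the SmoM2-labelled libraries. The levels of Csf1r in CPM thus overlapped between groups. Those of Cd74, which was chosen for being high in KO- and Het-labelled libraries, did not.

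Summed over the 10 genes common to leukocytes, the level was 14.4 and 2.39 CPM in the KO-labelled, 6.14 and 4.41 in the Het-labelled, 9.97 and 7.18 in the WT-labelled and 7.46 and 8.08 in the SmoM2-labelled libraries. Summed over 12 macrophage genes it was 33.6 and 16.1, 49.4 and 53.3, 43.2 and 36.2, and 31.8 and 35.7 CPM, highest in the Het-labelled libraries. Cd68 made up 10.8 and 13.9, 44.7 and 41.2, 20.5 and 27.7, and 22.5 and 29.6 CPM of that. Without Cd68, left out after its values were seen, the sum was 22.8 and 2.18, 4.67 and 12.0, 22.7 and 8.49, and 9.30 and 6.12 CPM. The 4 class II genes with Cd74 counted among them, H2-Aa, H2-Ab1 and H2-Eb1, summed to 307 and 252, 369.8 and 419, 67.9 and 48.9, and 20.02 and 36.0 CPM. None of these leukocyte and macrophage sums set both KO- and Het-labelled groups above the others. The class II sum did, but its genes were chosen with high Cd74 in those groups known, so nothing is read from that contrast.

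Cd74 counts per count of the 12 macrophage genes were 2.57 and 5.01 in the KO-labelled, 2.21 and 2.45 in the Het-labelled, 0.461 and 0.216 in the WT-labelled and 0.148 and 0.188 in the SmoM2-labelled libraries. Without Cd68 they were 3.80 and 37.1, 23.3 and 10.8, 0.877 and 0.923, and 0.505 and 1.09. By either ratio each KO- and Het-labelled library was above each other library. Since Cd74 was chosen for being high in KO- and Het-labelled libraries, nothing is read from this separation. The KO-labelled libraries, with 152 and 74 counts of the 12 macrophage genes, or 103 and 10 without Cd68, had similar Cd74 levels of 86.5 and 80.7 CPM.

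**Figure D3:**
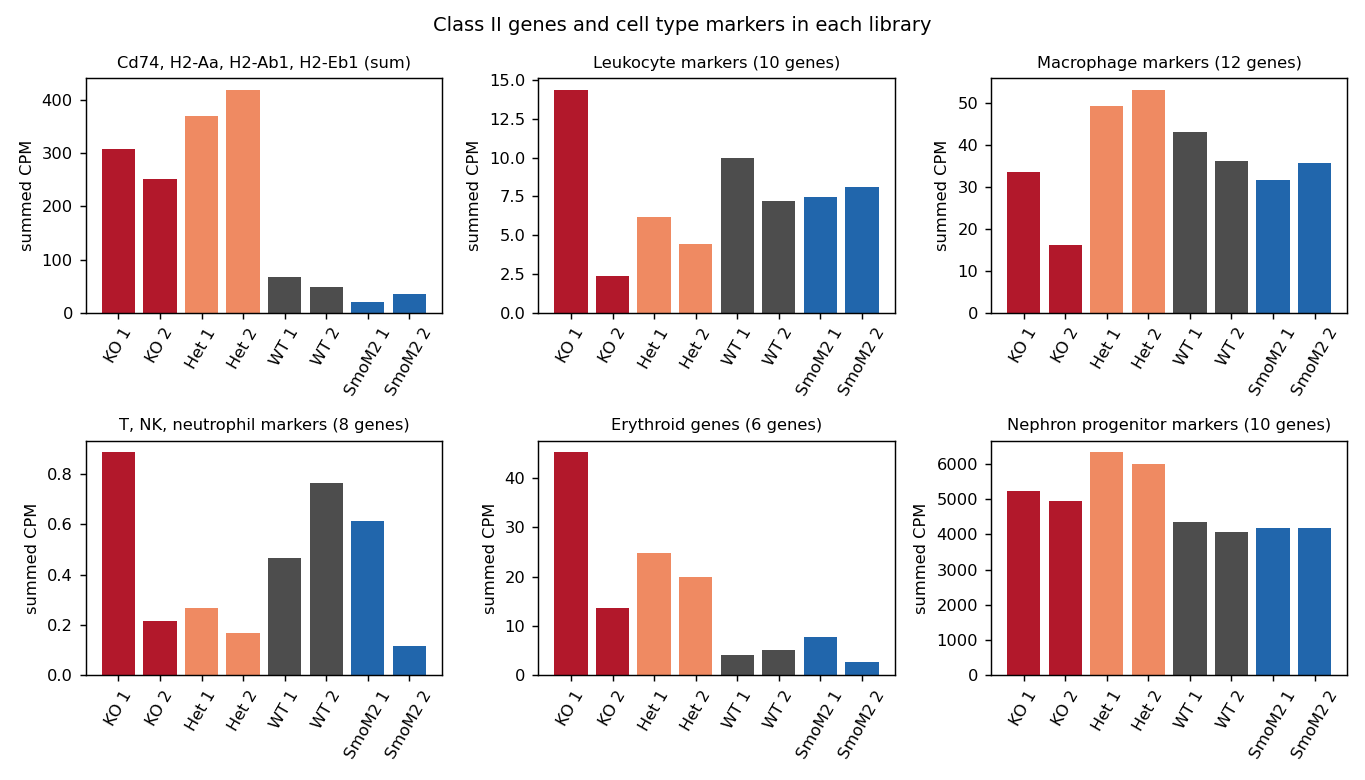
Summed CPM in each library of the 4 class II genes and of marker lists for leukocytes, macrophages, T, NK and neutrophil cells, erythroid cells and nephron progenitors, with axes from 0 and a separate scale for each panel. The class II sum is 252 to 419 CPM in KO- and Het-labelled libraries and 20.02 to 67.9 in the others. Its genes were chosen with high Cd74 in those libraries known, so nothing is read from that separation. The leukocyte sums are highest in the first and lowest in the second KO-labelled library, and the macrophage sums are highest in the Het-labelled and lowest in the second KO-labelled library.

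By test, 0 of 3 tested genes common to leukocytes passed in any comparison in edgeR and 0 had an unadjusted p under 0.05, and none of 8 T cell, NK cell and neutrophil genes had enough counts to test. Of all tested genes, 23.0%, 25.3% and 0.223% were called in KO, Het and SmoM2 against WT and 9.43% in KO against Het. Among 6 tested macrophage genes only Cd68 passed, lower in KO against WT by -0.96 (SE 0.23, edgeR adjusted p = 0.0133), higher in Het against WT by 0.84 (SE 0.20, edgeR adjusted p = 0.0123) and lower in KO against Het by -1.79 (SE 0.23, edgeR adjusted p = 0.00459). The single dendritic cell gene tested, Zbtb46, passed in none, and the single B cell gene tested, Cd79b, was lower in Het against WT by -1.57 (SE 0.48, edgeR adjusted p = 0.0324) and higher in KO against Het by 1.79 (SE 0.50, edgeR adjusted p = 0.0454).

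Markers of some other cells moved with the groups, where 23.0% of all tested genes were called in KO and 25.3% in Het against WT. Called higher were 11.6% and 13.1% of all tested genes. The 6 erythroid genes summed to 45.1 and 13.7 CPM in the KO-labelled, 24.8 and 19.9 in the Het-labelled, 4.10 and 5.22 in the WT-labelled and 7.87 and 2.77 in the SmoM2-labelled libraries, with 3 of 4 tested genes higher in KO and 2 of 4 in Het against WT. The globin genes Hba-a1 and Hba-a2 had the same count in all 8 libraries. The 10 endothelial genes summed to 77.0 and 52.9, 47.3 and 46.0, 25.4 and 32.1, and 25.1 and 33.3 CPM. Of 4 tested, 3 rose in KO and 1 in Het against WT, while the defining gene Pecam1 had at most 3 counts in any library. Of 9 tested genes of early nephron epithelium, 7 rose in KO and 2 in Het against WT, and 10 nephron progenitor genes summed to 4932 to 6323 CPM in the KO- and Het-labelled and 4070 to 4347 CPM in the other libraries. Of 8 stromal genes 1 rose and 1 fell in each of the 2 comparisons, a share of 25% that is near that of all tested genes, and of 4 tested ureteric bud genes 2 fell in KO, 1 fell in Het and 1 rose in SmoM2 against WT. The part of these cells in the class II levels was not tested.

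Cd74 was compared with every tested gene of an average log2 CPM of at least 1, by the root mean square difference of log2 CPM over the 8 libraries after each gene was centred on its mean. Among 12299 genes the nearest were H2-Eb1 at 0.27, H2-Aa at 0.28, Ppp1r1b at 0.29, Meis1 at 0.48 and Pnmt at 0.52. H2-Ab1 ranked 13 (0.71), Ciita 27 (0.82), H2-K1 1185 (1.53), B2m 4113 (1.76) and H2-D1 9067 (2.01). H2-Eb1 and H2-Aa were thus nearest, but Ppp1r1b, which is no MHC gene, was almost as near, and H2-Ab1 and Ciita ranked behind it. H2-K1, B2m and H2-D1 ranked below all of these. The members were chosen with earlier results of these data known, so nothing further is read from these ranks.

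Ppp1r1b, which encodes the phosphatase inhibitor DARPP-32, was at 56.9 and 39.2 CPM in the KO-labelled, 54.0 and 59.6 in the Het-labelled, 8.38 and 4.90 in the WT-labelled and 2.35 and 2.08 in the SmoM2-labelled libraries. Meis1, a homeobox factor, was at 86.3 and 98.3, 114 and 99.8, 16.95 and 11.8, and 10.4 and 11.5 CPM. Pnmt, the enzyme that makes adrenaline, was at 34.1 and 22.2, 25.4 and 15.4, 6.33 and 2.28, and 1.74 and 1.39 CPM. These genes were picked for their likeness to Cd74, so no test is given.

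**Figure D4:**
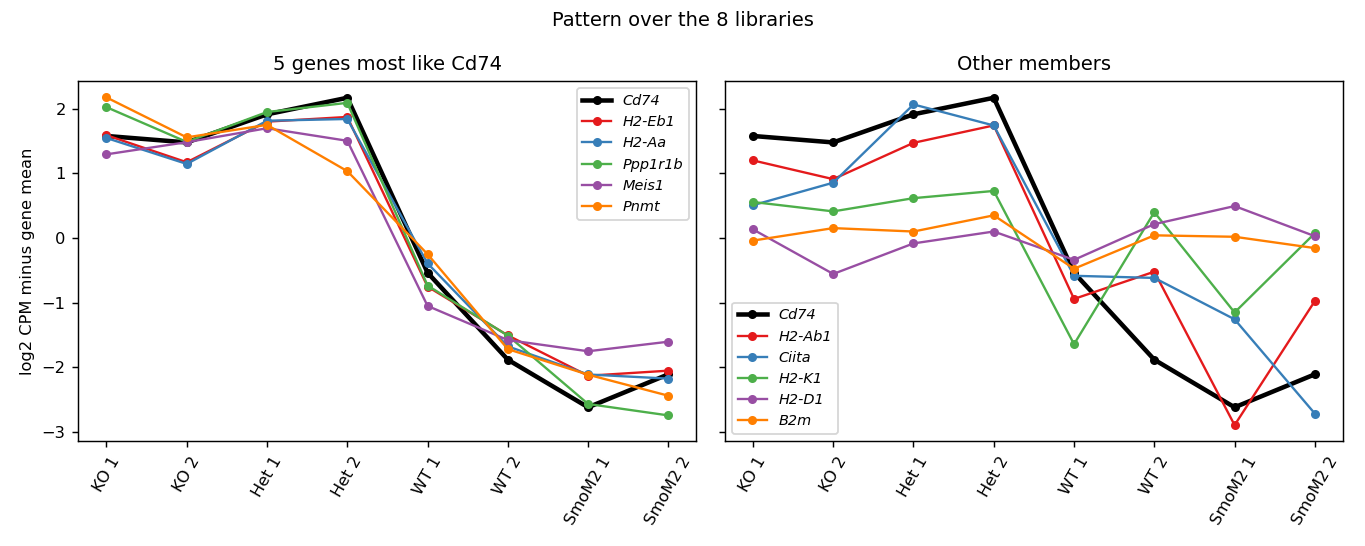
Log2 CPM of each gene minus its mean over the 8 libraries, for Cd74 with the 5 genes most like it (left) and with the other members (right). H2-Eb1, H2-Aa and Ppp1r1b lie within a root mean square difference of 0.29 of Cd74, while H2-D1 and B2m stay near 0 in all libraries.

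B2m had other neighbours. The genes nearest to it were Scpep1, Ift80, Sept3, Mlec and Colgalt1, at 0.086 to 0.095, and H2-D1 ranked 5461 and H2-K1 11149 among the 12299. Genes that vary as little as B2m over the libraries are many, and a small distance to it says no more than that.

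On chromosome 17 the class II members lie next to genes of class I presentation and of other roles. In RefSeq order Psmb9, Tap1, Psmb8, Tap2 and H2-Ob come before H2-Ab1, and H2-Eb2, Btnl2, Btnl1, BC051142 and Btnl4 after H2-Eb1. Of these 10 neighbours only Tap1, Tap2 and BC051142 could be tested, and none passed in any of the 4 comparisons. Between H2-K1 and H2-D1, 48 further tested genes are neither H2 genes nor on the presentation or interferon lists. Of them 29.2% were called in KO and 22.9% in Het against WT, beside 23.0% and 25.3% of all tested genes. Most of the calls were upward, with 13 higher and 1 lower in KO (27.1% higher, beside 11.6% of all tested genes) and 10 higher and 1 lower in Het (20.8%, beside 13.1%), and median log2 changes of 0.11 and 0.27. This region was looked at after the other values were known.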

How the data were processed

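RNA was taken from sorted kidney cells and polyadenylated RNA was sequenced, in 8 libraries of 4 genotype groups, with groups and replicate numbers from the labels. Per the file headers, the authors deposited a single table with raw read counts per gene, a gene length and the authors' RPKM values. The submitters' processing notes name STAR, Subread, featureCounts and the build mm10. The annotation, the strand setting and the handling of reads that fit several genes are not given in the sources used here, so counts of H2 genes, of overlapping genes and of antisense pairs may hold each other's reads.

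The members and gene lists were chosen with earlier results of these data known. Genes were filtered with filterByExpr, scaled with edgeR's trimmed mean method (TMM) and tested in 1 quasi-likelihood model of 4 group means over all 8 libraries with edgeR 4.0.16 in R 4.3.3. The model had 4 residual degrees of freedom and a biological coefficient of variation of 13.5%. P-values are two-sided and adjusted over 13459 genes by the Benjamini-Hochberg method, and a gene was called at an adjusted p under 0.05. SEs are those the test statistic implies. Log2 CPM used a prior count of 2. The code was tested on simulated data with known changes. A count of at most 3 was taken as the floor, and floors cover counting error only.

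The text names Smo, the 8 members, genes of the presentation, interferon and Cd74 partner lists that were called or that carry a role in the list, markers as checks, and the 5 genes most like Cd74 and B2m among those with an average log2 CPM of at least 1. Neighbouring genes on chromosomes 11 and 17 were added after their values were seen. Alternatives were other scalings, DESeq2 1.42.0, other filters, a replicate block, the loss of each library in turn, and, added after seeing the data, the KO-, WT- and SmoM2-labelled libraries alone. All libraries were used. A called gene of the interferon list and an erythroid marker are not reported here by name, but count in their lists. Promoters and positions are RefSeq's for GRCm38.p6.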

Additional observations from a re-analysis of the deposited data

How the results depend on the processing

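The 5 class II genes kept their direction in every alternative run and every comparison. H2-K1 in SmoM2 against WT was -0.12 with all libraries and ranged from -0.84 to 1.23 with a library left out, positive without the second WT-labelled (1.23) or the first SmoM2-labelled library (0.39). B2m in SmoM2 against WT ranged from -0.11, without the first WT-labelled library, to 0.42, and H2-D1 in KO against Het from -0.57 to 0.12, without the second KO-labelled library. H2-D1 also changed sign with a library left out in KO against WT (-0.52 to 0.17) and in Het against WT (-0.21 to 0.32). The cause was not tested. With fewer libraries or more genes tested, counts of called genes moved. With 2 libraries a group and 46 to 214 Cd74 counts in WT- and SmoM2-labelled libraries, changes as large as those of Cd74 in SmoM2 against WT could go uncalled.

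Genes called in SmoM2 against WT numbered 16 with no scaling beyond the listed counts, 82 in DESeq2 and 356 with no filter on low counts, and in KO against Het 2217 with no filter. With no filter, class II genes called were 4 in KO against Het, class I genes 3, 4, 1 and 1 in KO, Het and SmoM2 against WT and KO against Het, interferon genes 2 in KO against Het, and Cd74 partner and processing genes 5, 2 and 2 in KO against WT, SmoM2 against WT and KO against Het. Class II genes called in KO against WT were 1 with size factors by relative log expression, with a summed count of at least 10 and in the KO-, WT- and SmoM2-labelled libraries alone. Interferon genes called there were 1 in DESeq2, with the summed count of at least 10 and in those libraries alone. A summed count of at least 10 also gave 1 class I gene in KO against Het, and DESeq2 gave 1 partner gene in SmoM2 against WT.

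With a library left out, genes called ranged from 1305 to 2924 in KO against WT, 1411 to 3616 in Het against WT, 8 to 81 in SmoM2 against WT and 36 to 1472 in KO against Het. In the same order, class II genes called ranged from 1 to 2, 2 to 5, 0 to 0 and 0 to 2, class I genes from 0 to 1, 0 to 2, 0 to 1 and 0 to 0, interferon genes from 1 to 2, 2 to 4, 0 to 0 and 0 to 1, and Cd74 partner and processing genes from 1 to 4, 1 to 5, 0 to 1 and 0 to 1.

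The replicate numbers were not taken to pair the libraries across the 4 groups. Differences between replicates 1 and 2 correlated across genes by 0.39 between WT and SmoM2 and by -0.061 to 0.0997 between the other pairs of groups. In WT and SmoM2 the first library has Y-linked counts and the second Xist. The replicate block gave 54 genes called in SmoM2 against WT, 1 and 2 class I genes in KO and Het against WT, and 5 and 1 Cd74 partner and processing genes in KO and SmoM2 against WT.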

Other observations

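Of the 5 genes most like Cd74 in pattern, Ppp1r1b and Pnmt lie close together on chromosome 11, at chr11:98348406-98357796 and chr11:98386623-98388180 of GRCm38.p6, with Stard3 and Tcap between them. Stard3 and Tcap were looked at after this was seen. Tcap, a muscle protein gene, was at 13.9 and 8.70 CPM in the KO-labelled, 9.62 and 9.50 in the Het-labelled, 4.005 and 4.13 in the WT-labelled and 2.15 and 1.501 in the SmoM2-labelled libraries. In KO against WT it rose by 1.47 (SE 0.32, edgeR adjusted p = 0.00811) and in Het against WT by 1.23 (SE 0.31, edgeR adjusted p = 0.0149). Stard3, a cholesterol carrier of late endosomes, rose by 0.51 (SE 0.15, edgeR adjusted p = 0.0339) and by 1.18 (SE 0.15, edgeR adjusted p = 0.000509). It was lower in KO against Het by -0.67 (SE 0.15, edgeR adjusted p = 0.0219).

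Beyond Pnmt, Pgap3 passed in none of the 4 comparisons, and Erbb2, a receptor tyrosine kinase, rose in Het against WT by 1.09 (SE 0.14, edgeR adjusted p = 0.000555) but in KO against WT had a change of 0.31 (SE 0.14, edgeR adjusted p = 0.133). On the other side, Med1 and Cdk12 fell in KO against WT, by 0.69 (SE 0.14, edgeR adjusted p = 0.00583) and by 0.80 (SE 0.15, edgeR adjusted p = 0.00454), and Neurod2 had no counts. Stard3 and Tcap were thus both called higher in KO and in Het against WT, where 11.6% and 13.1% of all tested genes were called higher. Ppp1r1b and Pnmt, on either side of them, were picked for their likeness to Cd74, so nothing is read from their higher levels. The KO and Het comparisons share the WT-labelled libraries.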
